A study of Mus with 4 samples.

Results

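Circular RNAs (circRNAs) of wild-type mouse ocular tissue were compared between postnatal day 13 (P13) and postnatal day 12 (P12), as reads across back-splice junctions. The comparison holds the 9794 circRNAs with at least 20 junction reads over the 2 wild-type libraries, of 44073 circRNAs listed in any of the 4 libraries of the series. They carried 86.6% of the wild-type junction reads. The other 29545 circRNAs listed in wild type had fewer reads. At the threshold, 376 circRNAs stood at exactly 20 reads and 389 at 19.

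All mice in the series had been kept in 75% oxygen from P7 to P12. The P12 tissue was taken on return to room air and the P13 tissue 1 day later. The wild-type mice were of the strain C57BL/6J, and the other genotype lacked VLDLR through a deletion (VLDLR is a lipoprotein receptor). Each of the 4 combinations of genotype and day was 1 library, and the number of animals or eyes in it is not among the labels. A day of age and a day in room air cannot be told apart, and mice kept in room air throughout were not analysed here. The labelled tissue is ocular, with no part of the eye named, and circRNAs of photoreceptor, lens and striated muscle genes were listed in both wild-type libraries.

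A circRNA forms when the splicing machinery joins the end of an exon to the start of the same or an upstream exon, which closes the RNA into a ring. The ring has no free ends, so exonucleases degrade it slowly, and circRNAs are plentiful in neural tissue, the retina included. Exposure to high oxygen followed by room air is the mouse model of oxygen-induced retinopathy: retinal vessels regress under high oxygen, and the poorly perfused retina becomes relatively hypoxic once the mice breathe room air.

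The wild-type P12 library held 662811 junction reads over 28563 circRNAs, and the P13 library 759063 reads over 31208 circRNAs. Both came from the same lanes of 1 sequencing run, and the deletion libraries came from other runs, with 299723 reads at P12 and 341873 at P13. No Vldlr junction read was listed in any library, so the targeted gene gives no check of the labels. Junction reads of Uty, a gene of the Y chromosome, were listed in both wild-type libraries (219 at P12 and 300 at P13) and in the deletion library of P12 (71), but not in that of P13. Over the whole Y chromosome the deletion libraries held 80 junction reads at P12 and 0 at P13, and the wild-type ones 252 and 342. The sex of the animals may therefore differ between the deletion libraries, which cannot be told apart from day there. In bulk tissue, fewer cells of a type and less RNA per cell cannot be told apart.

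The ratio given throughout is the P13 share of junction reads divided by the P12 share, each as reads per total junction reads of its library. Its 95% interval is the exact conditional (Clopper-Pearson) interval of the counts. With 1 library a day there is no replicate, so the interval covers counting error only, and the calls compare 2 libraries, not the conditions. The reads carry no molecular identifiers and are not all independent molecules. A circRNA was called at a ratio of 2 or more, or of 0.5 or less, if the interval also left out 1.

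Most circRNAs differed little between the days. The ratio lay within 1.5-fold for 67.5% of the 9794 and within 2-fold for 86.2%, with a median log2 ratio of -0.003 and quartiles of -0.38 and 0.37. Higher at P13 were 420 circRNAs, or 4.29% of those tested, and lower were 465, or 4.75%. Of these 885, 9.04% of the whole, most held few reads: their median was 33 junction reads over both libraries, in each direction. The authors' own scaling, SRPBM (spliced reads relative to the mapped reads of a library), placed every log2 ratio 0.20 higher, and the share of calls that were higher then went from 47.5% to 73.1%.

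The share called differed with the reads behind a circRNA. It was 12.2% of the 2817 circRNAs with 20 to under 30 reads and highest, at 14.6%, in the 2477 with 30 to under 50. Above that it was lower, at 6.93% of the 2193 with 50 to under 100 reads. It was 1.63% of the 1164 with 100 to under 200 reads and 1.06% of the 756 with 200 to under 500. Of the 387 circRNAs with at least 500 reads, 382 stayed within 1.5-fold. Small differences were nonetheless beyond counting error for 139 of these 387, whose interval left out 1 (70 higher and 69 lower at P13). The plot of ratio against reads shows the narrower spread at high reads.

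**Figure D1:**
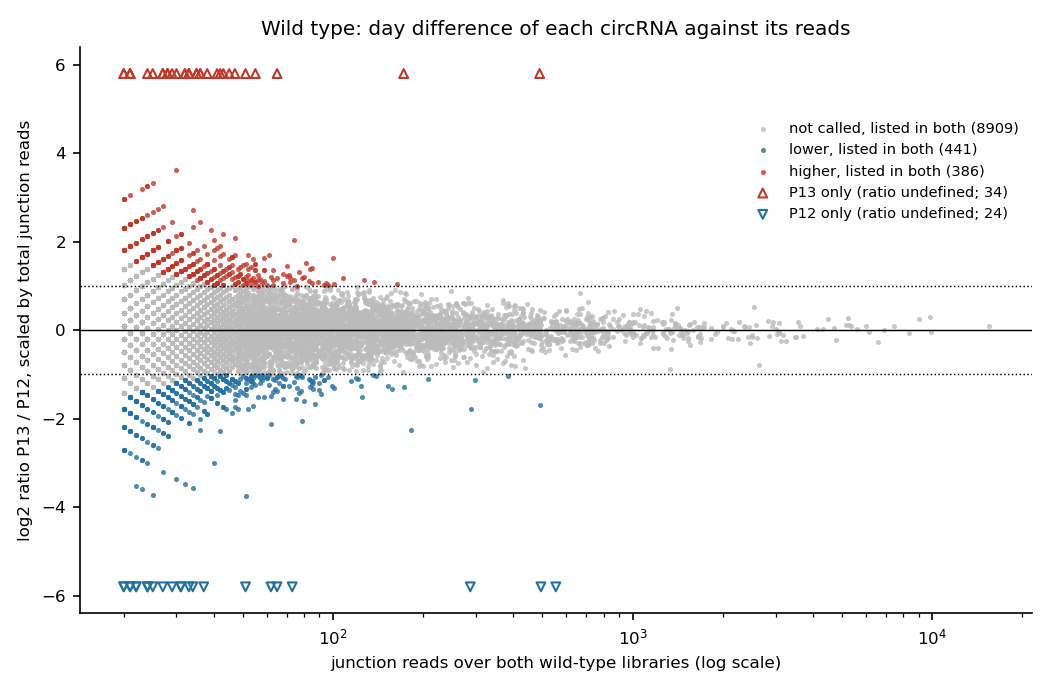
Log2 ratio of P13 over P12 for each of the 9794 wild-type circRNAs against its junction reads over both libraries (log scale), with calls in colour and dotted lines at a ratio of 2 and of 0.5. The spread narrows with reads. Triangles at the top and bottom mark the 34 circRNAs listed only at P13 and the 24 listed only at P12, whose ratio is undefined.

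The 10 circRNAs with the most reads stayed within 1.5-fold. An intergenic circRNA at chr10:92075170-92136690 (minus strand) held the most reads, 6917 at P12 and 8525 at P13, a ratio of 1.08 (95% counting interval 1.04 to 1.11). The second was from Gigyf2, a translational repressor, with 4686 and 5253 reads and a ratio of 0.979 (0.941 to 1.02). CircRNA of Hipk3, a nuclear protein kinase and a widely studied circRNA host, had 3989 and 4372 reads and a ratio of 0.957 (0.917 to 0.999). None of the 10 circRNAs with the most reads was called.

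The widest ratios among these 10 were above 1 for a cilium gene and a photoreceptor gene and below 1 for Tulp4. CircRNA of Bbs9, a subunit of the BBSome that carries proteins into cilia, had 4081 reads at P12 and 5739 at P13, a ratio of 1.23 (1.18 to 1.28). CircRNA of Ano2, a calcium-activated chloride channel of photoreceptor terminals, had 3825 and 5190 reads and a ratio of 1.18 (1.14 to 1.24). CircRNA of Tulp4, a tubby-like protein, had 3365 and 3225 reads and a ratio of 0.837 (0.797 to 0.879). In the deletion pair of libraries the 3 ratios were 1.02, 1.01 and 0.999, close to 1 in each case.

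Only 5 circRNAs with at least 500 reads left the 1.5-fold range. The circRNA of Pde6a, the alpha subunit of the rod phosphodiesterase, had 219 reads at P12 and 448 at P13, a ratio of 1.79 (1.52 to 2.11), and that of Kcnh5, a voltage-gated potassium channel, had 256 and 453, a ratio of 1.55 (1.32 to 1.81). Lower at P13, with neither called, were circRNAs of Rtn2, an endoplasmic reticulum protein (1591 and 1052 reads, ratio 0.577, 0.534 to 0.625), and Tmem132d, a membrane protein (822 and 511 reads, ratio 0.543, 0.485 to 0.607). The fifth, from Spopl, was listed at P12 only and is described with its like below. In the deletion libraries the Pde6a ratio was 1.22 and the Rtn2 ratio 0.830, on the same side of 1, whereas the Kcnh5 ratio was 0.800, on the other side.

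Called circRNAs listed on both days with at least 100 reads numbered 6 higher and 17 lower. In the classes of 100 or more reads at most 1.63% were called, beside 9.04% of all circRNAs tested. The split of calls by direction moved with the scaling, as given above. The 6 higher ones had ratios from 2.05 to 3.10. The largest ratio belonged to Ppp2r2b, a brain-enriched regulatory subunit of protein phosphatase 2A, whose circRNA at chr18:42688302-42701647 had 22 reads at P12 and 78 at P13, a ratio of 3.10 (1.91 to 5.22). CircRNA of Hltf, a helicase-like DNA repair factor, rose from 30 to 78 reads (ratio 2.27, 1.47 to 3.58), and that of Arih2, an E3 ubiquitin ligase, from 36 to 91 (2.21, 1.49 to 3.34). An intergenic circRNA at chr12:6637974-6639980 went from 40 to 97 reads (2.12, 1.45 to 3.14).

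The other two were from Lmbrd1, a lysosomal membrane protein of cobalamin export, with 30 and 71 reads (ratio 2.07, 1.33 to 3.28), and Ascc1, a subunit of a transcriptional coactivator complex, with 49 and 115 (2.05, 1.45 to 2.92). Counting only 1 read of a circRNA from neighbouring clusters of the flow cell left Lmbrd1 short of a call, at a log2 ratio of 0.94. In the deletion pair none of the 6 was called, and the ratios of 4 lay above 1 (Ppp2r2b 1.45, the intergenic circRNA 1.28, Arih2 1.10 and Ascc1 1.04), against 0.814 for Lmbrd1 and 0.677 for Hltf.

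Several of the lower circRNAs held more reads than the higher ones. CircRNA of Pcnx, a multi-pass membrane protein, at chr12:81917665-81919380, had 147 reads at P12 and 35 at P13, a ratio of 0.208 (0.140 to 0.302). CircRNA of Slc38a10, an amino acid transporter, fell from 216 to 72 reads (ratio 0.291, 0.220 to 0.382). CircRNA of Nfic, a transcription factor of the nuclear factor I family, at chr10:81420267-81420798, fell from 363 to 129 reads (0.310, 0.252 to 0.380).

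CircRNA of Ddr1, a collagen-binding receptor kinase, had 89 and 36 reads (ratio 0.353, 0.233 to 0.526). The next 4 by ratio were from the zinc finger genes Zfp516 (108 and 49 reads, ratio 0.396) and Zfp827 (103 and 49, 0.415), from Tanc1, a postsynaptic scaffold (69 and 32, 0.405), and from Tbc1d22a, of the Rab GTPase-activating family (117 and 55, 0.410). Of these 8, the Zfp516 circRNA was also called lower in the deletion pair (23 and 7 reads, ratio 0.267, 0.0967 to 0.642), and the Nfic circRNA stood at 26 and 15 reads (0.506) without a call. The Slc38a10 circRNA went the other way there (12 and 21 reads, 1.53), and the Pcnx circRNA was not listed in either deletion library.

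**Figure D2:**
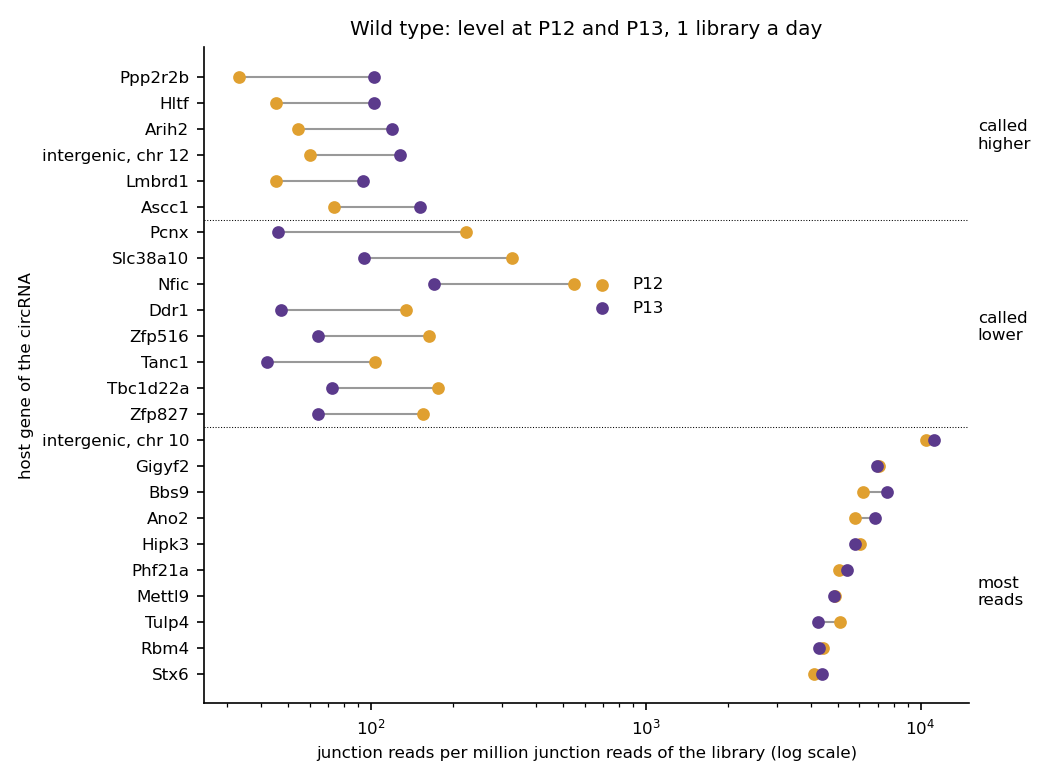
Junction reads per 1000000 junction reads of the library (log scale) at P12 (yellow) and P13 (purple) in wild type, 1 library a day, for the 6 called higher and the 8 called lower with the largest ratios among circRNAs listed on both days with at least 100 reads, and for the 10 with the most reads. The pairs of points are wide apart in the called groups and nearly overlie each other in the abundant group.

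Each lane of the run holds part of the reads, and calls made on 1 lane alone were fewer. Lane 2 alone gave 182 higher, of which 79 were among the 420, and 225 lower, of which 109 were among the 465. Lane 3 alone gave 162 higher, with 67 among the 420, and 190 lower, with 107 among the 465. Fewer circRNAs reached 20 reads on 1 lane, 5586 on lane 2 and 5570 on lane 3.

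A set of 58 circRNAs was listed on 1 day only, 34 at P13 and 24 at P12. The lowest count listed in the tables was 2 reads, so an unlisted circRNA may have had a read, or may have been dropped by the caller. The call takes an unlisted circRNA as 0 reads, and no fold is given for these.

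The 4 with the most reads were unlisted in both deletion libraries too. CircRNA of Spopl, an adaptor of cullin ubiquitin ligases, at chr2:23537328-23545579, had 554 reads at P12 and was unlisted at P13. CircRNA of Ncoa2, a nuclear receptor coactivator, had 494 reads at P12, and that of Zfand6, a zinc finger protein, 287, and both were unlisted at P13. CircRNA of Pms1, a mismatch repair protein, at chr1:53207576-53282092, was unlisted at P12 and had 489 reads at P13.

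Other circRNAs that share a splice end with these had similar sums on both days. For Spopl, 8 such circRNAs summed to 69 reads at P12 and 79 at P13, for Ncoa2 4 summed to 334 and 361, and for Pms1 8 summed to 2068 and 2440. For Zfand6, 3 summed to 35 and 44. Spopl had 4 rings listed at P12 only and 1 at P13 only, and Zfand6 3 at P12 only.

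Further circRNAs listed at P13 only were from Fbxw4, an F-box protein (172 reads), Eed, a Polycomb protein (65), Cpeb3, a regulator of messenger RNA polyadenylation and translation (55), Ambra1, an autophagy regulator (51), and Tpr, a nuclear pore protein (47). The Fbxw4, Ambra1 and Tpr circRNAs were listed on both days in the deletion libraries, with 127 and 121, 31 and 31, and 14 and 28 reads, and none was called there. At P12 only were Rock1, a kinase of the actin cytoskeleton (73 reads), Zfp644, a zinc finger protein (65), and Setbp1, a chromatin-binding protein (62). The Cpeb3 circRNA alone among the 12 with the most reads had the same pattern in both genotypes, with no listing at P12 and 38 reads at P13 in the deletion libraries.

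The only test that the design allows fits a day term over all 4 libraries with genotype as a second term. It leaves 1 residual degree of freedom. It estimates 1 day difference for both genotypes together, and a circRNA read in only 1 genotype can still have a small p-value. Of 8785 circRNAs with at least 10 reads in 2 or more libraries, the quasi-likelihood test of edgeR, adjusted by the Benjamini-Hochberg method, called 1 higher (0.0114% of those tested) and 1 lower (0.0114%). The higher one was the Cpeb3 circRNA at chr19:37087538-37126388, with reads of 0 and 55 in the wild-type pair and of 0 and 38 in the deletion pair (edgeR adjusted p = 0.00139). The lower one was the Nfic circRNA, with reads of 363 and 129 in the wild-type pair and of 26 and 15 in the deletion pair (edgeR adjusted p = 0.0467). DESeq2's Wald test called neither, with 0 in each direction.

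At an unadjusted p under 0.05 edgeR gave 158 higher and 156 lower, and DESeq2 27 and 33. The next smallest adjusted p-values of edgeR's quasi-likelihood test did not pass. They belonged, among the higher, to circRNAs of Unc79, a subunit of the sodium leak channel complex (wild-type reads of 0 and 29, deletion reads of 0 and 16, adjusted p = 0.138), and Rpph1 (0 and 28, 0 and 13, adjusted p = 0.274). Among the lower they belonged to Pcnx (adjusted p = 0.212), Tmeff1 (195 and 102, 162 and 113, adjusted p = 0.274) and Zfp516 (adjusted p = 0.414). The Pcnx circRNA was unlisted in the deletion libraries, so its day difference rests on the wild-type pair alone. The Rpph1 ring spans the RNA component of ribonuclease P, a short abundant noncoding RNA, and its locus carried 4303410 non-junction reads in the wild-type P13 library, so the 28 junction reads were a share of 1.3e-05 on the junction-ratio scale.

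The deletion pair, whose P13 library held no Y chromosome reads, shares no library with the wild-type pair. There 5206 circRNAs passed the same minimum, and 203 were higher (3.9%) and 223 lower (4.28%), 8.18% in either direction. Of the 420 higher in wild type, 128 were tested in the deletion pair, and 11 of these (8.59%) were called higher and 1 lower. Their deletion ratios were above 1 for 72 and below 1 for 56, with a median log2 of 0.07. Of the 465 lower in wild type, 142 were tested, with 11 (7.75%) called lower and 8 called higher, and a median log2 of -0.06. Among the 4704 tested in both pairs and not called in wild type, 3.74% were called higher and 3.91% lower in the deletion pair.

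The same call was made in both genotypes for 22 circRNAs, of which the Zfp516 circRNA held the most reads in wild type (108 and 49). Among the higher were circRNAs of Agtpbp1, a tubulin deglutamylase whose loss causes photoreceptor and Purkinje cell degeneration (17 and 53 reads in the wild-type pair, 6 and 24 in the other), Kdm4c, a histone demethylase (28 and 65, 8 and 27), and Trpm3, a cation channel (17 and 42, 8 and 23). Among the lower were circRNAs of Syt9, a synaptotagmin (84 and 40, 16 and 5), Nol10, a nucleolar protein (54 and 23, 22 and 11), Ralgps1, a Ral exchange factor (44 and 19, 57 and 29), Magi2, a synaptic scaffold (42 and 17, 17 and 4), and Apc, a Wnt pathway scaffold (35 and 19, 22 and 6, not called in wild type under SRPBM scaling). These examples beyond the naming rule were chosen after their values were seen.

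Photoreceptor genes lay slightly above the middle in wild type. Of 59 listed genes 39 had reads, and 145 of their circRNAs were tested: 6 were called higher and 5 lower, where 4.29% of all circRNAs were higher and 4.75% lower, with a median log2 ratio of 0.16 beside -0.003 over all circRNAs. Their summed reads went from 15330 to 19823, or from 23129 to 26115 RPM, junction reads per 1000000 junction reads of a library (log2 0.18, and 0.15 without Ano2). In the deletion pair the summed level was nearly the same on both days, 25564 and 25650 RPM (log2 0.005). Whether the genotypes differ in this was not tested. The share called in either direction was 7.59%, below the 9.04% of all circRNAs. These calls depended on the setting, with 15 higher and 4 lower under SRPBM scaling, and 1 higher and none lower at a minimum of 50 reads. Lane 2 alone gave 4 higher and 1 lower, and lane 3 alone 5 and 3.

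Within the phototransduction genes, summed over the circRNAs of a host, Pde6a had 457 reads at P12 and 830 at P13 (ratio 1.59, 1.41 to 1.78). Rgs9, the GTPase accelerator of rod transducin, had 408 and 603 (1.29, 1.14 to 1.47), and Gucy2f, a retinal guanylate cyclase, 198 and 288 (1.27, 1.06 to 1.53). Their intervals lie above 1 and below the 2-fold threshold. Sag, the rod arrestin, with 286 and 367 reads (1.12, 0.957 to 1.31), Pde6c, the cone phosphodiesterase, with 100 and 125 (1.09, 0.832 to 1.43), and Cngb3, the cone channel subunit, with 131 and 133 (0.887, 0.691 to 1.14), had intervals that include 1.

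Among structural and connecting-cilium genes of the photoreceptor, Rpgrip1 had 2022 and 2572 reads (ratio 1.11, 1.05 to 1.18) and Impg2, of the interphotoreceptor matrix, 204 and 288 (1.23, 1.03 to 1.48). Prom1, a protein of outer segment discs, had 858 and 1074 (1.09, 0.998 to 1.20). Pcdh15, a cadherin, stood at 1762 and 1968 (0.975, 0.914 to 1.04). Below 1 were Crb1, an adhesion protein of the outer limiting membrane, with 70 and 45 (0.561, 0.377 to 0.828), and Cacna1f, the calcium channel of the photoreceptor synapse, with 62 and 46 (0.648, 0.433 to 0.964). Of 32 photoreceptor hosts tested, 23 had a ratio above 1 and 9 below.

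By summed reads 4 photoreceptor hosts were called higher and none lower, where 3.57% of all 4112 hosts tested were called higher and 3.72% lower (7.3% in either direction). They were Pde6b, the beta subunit of the rod phosphodiesterase (17 and 46 reads), Rdh12, a photoreceptor retinol dehydrogenase (4 and 26), Rpgr, a ciliary regulator (17 and 50), and Mpp4, a scaffold of the photoreceptor synapse (2 and 26). These calls rest on rings listed on 1 day. With only circRNAs listed on both days, Pde6b had 14 and 20 reads and Rpgr 17 and 18, without a call, with the Rpgr ratio below 1 (log2 -0.11), and Rdh12 and Mpp4 had no circRNA left.

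Single circRNAs of photoreceptor genes were called in both directions. One from Rpgrip1 was higher (15 and 36 reads, ratio 2.10, 1.12 to 4.12). Crx, a transcription factor of photoreceptors, had 1 higher (12 and 34, 2.47) and 1 lower (24 and 11, 0.400).

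**Figure D3:**
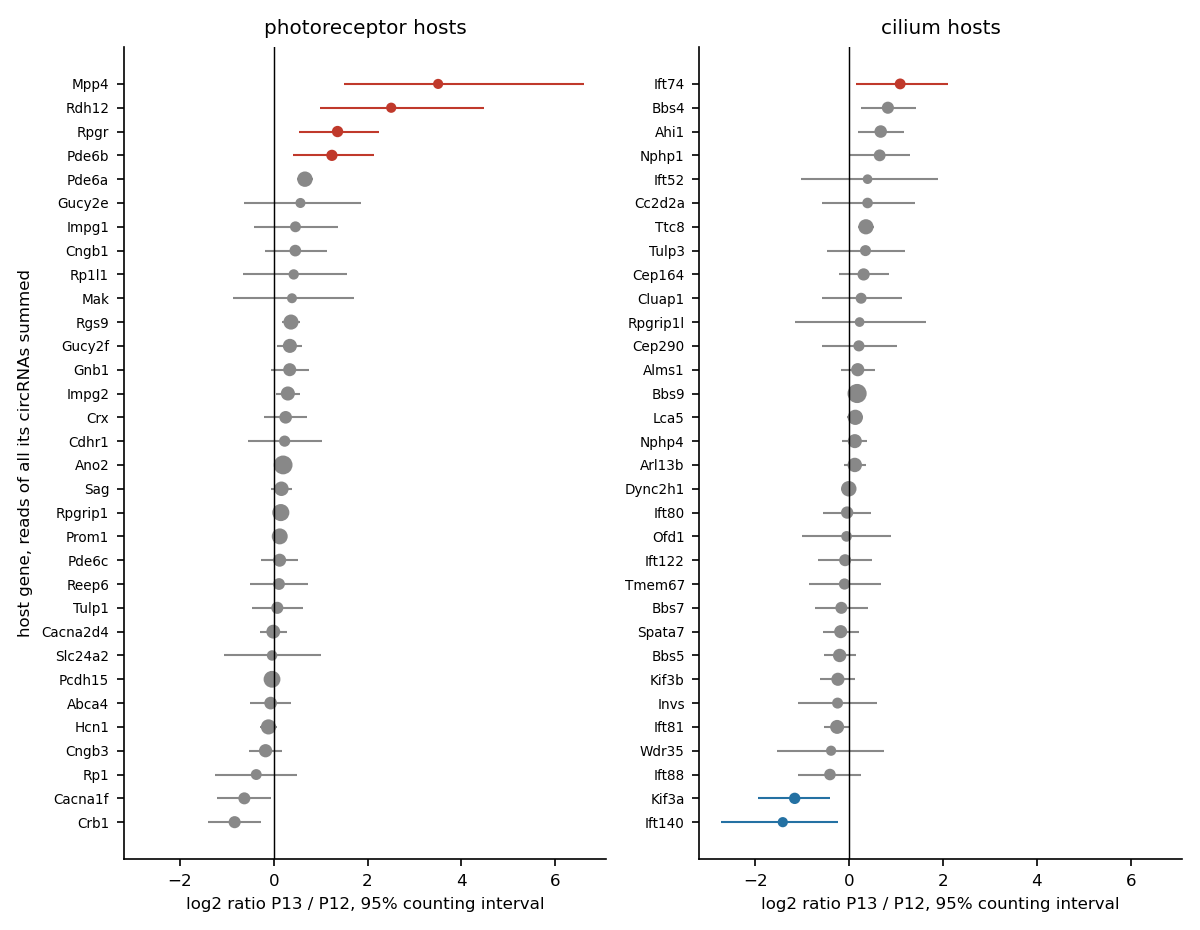
Log2 ratio of P13 over P12 in wild type with its 95% counting interval for photoreceptor hosts (left) and cilium hosts (right), reads of all circRNAs of a host summed, with larger points for more reads, red for called higher, blue for called lower and grey for not called. The hosts with the most reads (Ano2, Pcdh15, Rpgrip1, Bbs9) lie close to 0, and the called hosts have wide intervals.

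Cilium genes had a like median. Of 55 genes 44 had reads, and among 90 circRNAs there were 6 calls higher and 1 lower, with a median log2 ratio of 0.17. The share called was 7.78%, beside 9.04% of all circRNAs. These calls depended on the reads used: there were none in either direction at a minimum of 50 reads, 2 higher and none lower on lane 2 alone, and none higher and 2 lower on lane 3 alone. Bbs9 held most of the reads, 9686 at P12 and 12449 at P13 over its circRNAs (ratio 1.12, 1.09 to 1.15). The summed level of the list was 0.14 higher on the log2 scale, 0.07 without Bbs9, and 0.08 lower in the deletion pair (log2 -0.08). Ttc8, another BBSome subunit, had 448 and 656 reads (1.28, 1.13 to 1.45).

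Among 32 cilium hosts, 17 had a ratio above 1 and 15 below. Ift74, of intraflagellar transport, was called higher (14 and 34 reads), and Kif3a, a kinesin motor (45 and 23), and Ift140 (21 and 9) lower. Without rings listed on 1 day, Ift74 and Kif3a were not called and Ift140 had fewer reads than the minimum. The circRNAs with the most reads called higher were those of Dync2h1, the cilium dynein (12 and 28, not called with neighbouring clusters collapsed), and Bbs7 (11 and 28). The lower one was from Kif3a (16 and 7, not called under SRPBM or median-of-ratios scaling or with clusters collapsed).

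Genes of the response to low oxygen lay near the middle as a group. Among 44 circRNAs there were 4 calls higher and 1 lower, 11.4% in all beside 9.04% of all circRNAs, with a median log2 ratio of 0.04. The higher ones were a pair from Kdm4c (28 and 65 reads, ratio 2.03, and 7 and 30, ratio 3.74), 1 from Hk1, a hexokinase (5 and 23, ratio 4.02), and 1 from Hif1a, the oxygen-regulated transcription factor subunit (6 and 19, ratio 2.77, 1.06 to 8.46). The lower one was from Kdm4b (17 and 3, ratio 0.154). The summed level went from 5804 to 5964 RPM (log2 0.04, and -0.035 without Kdm4c, the host with the most reads).

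Genes of the oxidative stress response had 11 circRNAs tested, none higher and 3 lower, where 4.29% of all circRNAs were higher and 4.75% lower. These were a pair from Msra, a methionine sulfoxide reductase (20 and 7 reads, ratio 0.306, and 18 and 8, ratio 0.388, the latter not called under SRPBM scaling or with neighbouring clusters collapsed), and 1 from Bach1, a repressor of antioxidant genes (18 and 7, 0.340). The median log2 ratio of the list was -0.35 on these few circRNAs, but -0.13 with clusters collapsed, -0.15 under SRPBM scaling and -0.005 for the 5 circRNAs tested on lane 2 alone, and the summed level was 0.15 lower (log2 -0.15), against 0.24 higher in the deletion pair.

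Endothelial and vessel growth genes were sparsely represented, with 18 of 41 at 0 reads in wild type. Of 13 circRNAs tested, none was higher and 1 lower, from Robo1, a guidance receptor (45 and 20 reads, ratio 0.388, 0.217 to 0.671), and the median log2 ratio was -0.29. The share called was 7.69%, beside 9.04% of all circRNAs. On summed reads of a host the direction differed: of 9 hosts tested, 6 had a ratio above 1 and 3 below, with a median log2 ratio of 0.07. Igf1r, the insulin-like growth factor receptor, gave 477 of the 1022 reads at P12 and 458 of 976 at P13. Of the Wnt and Norrin pathway, which directs retinal vessel growth, 36 circRNAs were tested, with 1 higher and 2 lower (8.33% called). Their median log2 ratio was 0.05, whereas of 16 hosts on summed reads 4 had a ratio above 1 and 12 below. Lrp5, a coreceptor of that pathway, had 1 ring of each kind, at 7 and 24 reads (ratio 2.99) and at 28 and 11 (0.343).

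Lipoprotein receptors and lipid handling genes, the group to which VLDLR belongs, had 53 circRNAs tested, none higher and 2 lower, from Ldlrad4 (19 and 6 reads, ratio 0.276) and Scap, the escort of sterol-regulated transcription factors (16 and 4, 0.218). These 2 were 3.77% of those tested, beside 9.04% of all circRNAs called, and the median log2 ratio was -0.08. Cpt1a, the carnitine palmitoyltransferase of mitochondrial fatty acid uptake, was called higher on summed reads (29 and 73), but with circRNAs listed on both days it had 29 and 33 (log2 -0.0092).

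Synapse genes had 241 circRNAs tested with 13 higher and 16 lower, 12.0% beside 9.04% of all circRNAs, and a median log2 ratio of -0.03. Calls often went both ways. Among the higher were circRNAs of Stxbp5, an inhibitor of vesicle fusion (26 and 63 reads, ratio 2.12, 1.32 to 3.48), and Gphn, the scaffold gephyrin (8 and 33, 3.60, 1.63 to 9.03). Among the lower were those of Rims1, an active zone scaffold (59 and 27, 0.400, 0.244 to 0.640), and Magi2.

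RNA binding and splicing genes had 103 tested, 7 higher and 4 lower (10.7% called, beside 9.04% of all), with a median log2 ratio of -0.11. CircRNA of Ptbp3, a splicing regulator, went from 22 to 58 reads (ratio 2.30, 1.39 to 3.95), and a further Cpeb3 ring from 21 to 51 (2.12, 1.25 to 3.71). Lower were those of Adarb2, an RNA-editing family member (42 and 23, 0.478, not called under median-of-ratios scaling), and Dhx9, an RNA helicase (39 and 21, 0.470, and called lower in the deletion pair too, at 30 and 14). Neither of these lower calls held under SRPBM scaling.

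The share called over all circRNAs, 9.04%, stands beside each of the following. Chromatin regulators had 298 circRNAs tested with 13 higher and 16 lower (9.73% called, median log2 -0.04). Among them were circRNAs of the chromatin remodeller Smarca2 (15 and 44 reads, ratio 2.56) and of the coactivator Ncoa1 (39 and 21, 0.470). Ubiquitin ligases had 206, with 15 higher and 13 lower (13.6% called, -0.07), with Mib1, a ligase of the Notch pathway, among the lower (32 and 17, 0.464). Neither the Ncoa1 nor the Mib1 call held under SRPBM scaling. Hosts widely studied for their circRNAs had 259, with 10 higher and 12 lower (8.49% called, 0.03). Examples were a ring of Itch, a ubiquitin ligase (9 and 34, 3.30), a minor ring of Gigyf2 (41 and 20, 0.426) and one of Zfp148, a zinc finger protein (89 and 50, 0.491, not called under SRPBM or median-of-ratios scaling or with clusters collapsed). DNA replication and mitosis genes had 27, with 1 higher, from Mad1l1, of the spindle checkpoint (8 and 22 reads), and none lower, and circadian clock genes 18, with none called. In none of these did the median leave 0 by more than 0.1 on the log2 scale.

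**Figure D4:**
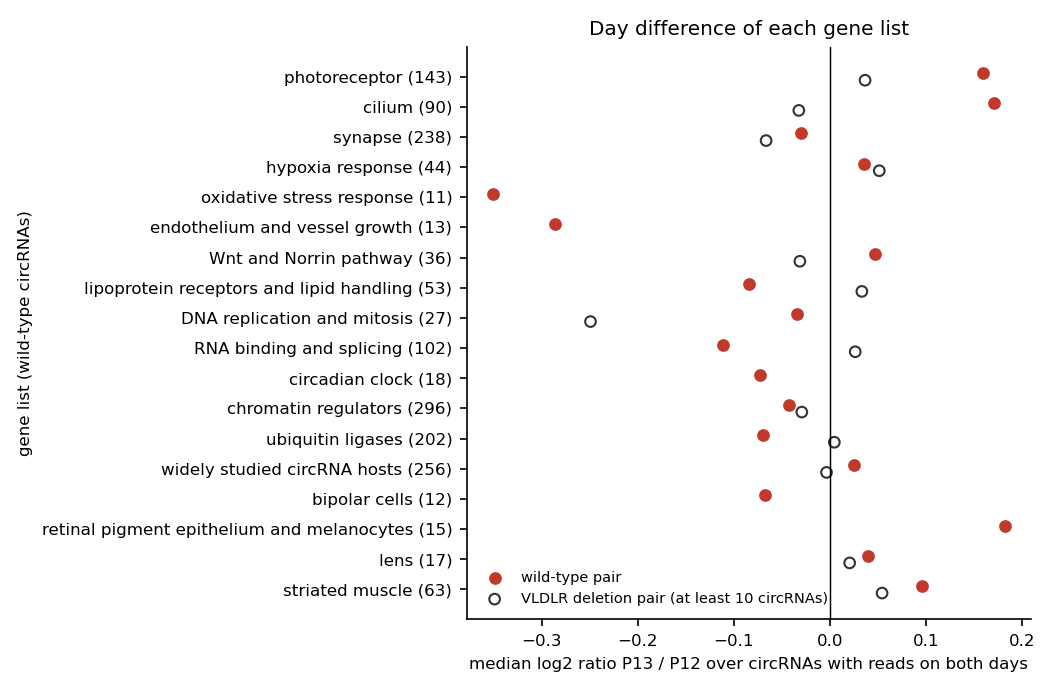
Median log2 ratio of P13 over P12 for each list with at least 10 circRNAs with reads on both days (number in parentheses), in the wild-type pair (filled) and, where at least 10 were tested, the deletion pair (open). Photoreceptor and cilium medians are at 0.16 and 0.17 for the wild-type pair, and at 0.04 and -0.03 for the deletion pair. Under the authors' SRPBM scaling every wild-type median sits 0.20 higher, so medians between -0.20 and 0 change sign.

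Markers of other cells of the eye were few among circRNAs. No circRNA of pericytes and smooth muscle or of microglia and leukocytes reached 20 reads, and 16 of 17 microglia and leukocyte genes were at 0 in wild type. Lens genes summed to 1753 and 1968 RPM, striated muscle genes to 4564 and 4960, and pigment epithelium and melanocyte genes to 955 and 1017. The cornea and surface epithelium list stood at 213 and 278 RPM, with 12 of its 14 genes at 0 in wild type. Ktn1 gave 139 of its 141 reads at P12 and all 211 at P13, so this sum is not a level of that tissue. These 4 sums were higher at P13, as were those of bipolar cell genes (1046 and 1096 RPM) and erythroid genes (81.5 and 103). Single hosts weighed on them. At P12 Trpm3 gave 455 of 633 pigment epithelium and melanocyte reads, and Dmd 1300 of 3025 muscle reads. Without Rgs7 the bipolar sum was lower at P13 (log2 -0.04). In the deletion pair the lens and bipolar sums were lower at P13 (log2 -0.25 and -0.33), and those of the muscle, pigment epithelium, cornea and erythroid lists higher. Sums of amacrine, horizontal and ganglion cell genes (448 and 387) and of fibroblast and sclera genes (125 and 92.2) were lower, and those of Mueller glia and astrocyte genes were nearly equal (80.0 and 80.4). How far the tissue taken differed between the libraries was not tested.

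Few marker circRNAs were called, and the 9.04% called over all circRNAs stands beside each list here. The share called was 6.35% for striated muscle genes, 5.88% for lens genes and 13.3% for pigment epithelium and melanocyte genes. It was 16.7% for bipolar cell genes and also for amacrine, horizontal and ganglion cell genes, on few circRNAs. Bipolar cell genes had 1 of 12 higher, from Otx2, a transcription factor that photoreceptors also express (18 and 47 reads, ratio 2.28), and 1 lower, from Grm6, the glutamate receptor of ON bipolar cells (27 and 15, 0.485). The Grm6 circRNA was not called under SRPBM or median-of-ratios scaling, and neither was called once reads from neighbouring clusters were counted once. Of 6 circRNAs of amacrine, horizontal and ganglion cell genes 1 was lower, from Pax6, a transcription factor of eye development (18 and 4, 0.194). The only circRNA tested among Mueller glia and astrocyte genes, from Slc1a2, a glutamate transporter, was higher (4 and 21, 4.58). Striated muscle genes had 63 circRNAs tested with 1 higher and 3 lower, of which Dmd, the dystrophin gene, gave 1 higher (20 and 52, 2.27) and 2 lower, the third being from Svil, an actin-binding protein (25 and 12). Under SRPBM scaling this list had 5 higher and 1 lower, and with reads from neighbouring clusters counted once 2 higher and 1 lower. Lens genes had 1 of 17 higher, from Tdrd7 (9 and 26, 2.52), and pigment epithelium and melanocyte genes 1 of 15 in each direction, both from Trpm3.

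A lens gene stood out among hosts. Cryga, a gamma crystallin, had 45 reads at P12 and 158 at P13 over 36 circRNAs (ratio 3.07, 2.19 to 4.37), 25 of which were listed at P13 only. With the 5 listed on both days it had 27 and 56 reads, without a call. The gamma crystallin genes are close copies of each other in a cluster, so reads may have been split among them or joined across them.

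Over all hosts, calls on summed reads were of 147 higher and 153 lower. A called circRNA was found in 706 hosts, and 115 of these hosts passed on the sum. Counting only circRNAs listed on both days left 63 hosts higher and 102 lower, of which 47 and 76 were among the 147 and 153. Higher hosts with a call under both counts were Pfkfb2, a regulator of glycolysis (14 and 70 reads, ratio 4.37, 2.44 to 8.39), Suclg1, of the citric acid cycle (10 and 44, 3.84), Ppp4r3a, a phosphatase subunit (10 and 41, 3.58), and Cryzl1 (12 and 43, 3.13). Tbc1d1, a Rab GTPase-activating protein of glucose transporter traffic (19 and 91), Pds5a, a cohesin regulator (15 and 67), and Wdr26 (14 and 48) were called on all rings and not with rings listed on both days.

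Lower hosts called under both counts were Spsb4, of the SOCS box family (49 and 4 reads, ratio 0.0713, 0.0187 to 0.194), Adcy6, an adenylyl cyclase (50 and 15, 0.262), Klhl1 (39 and 12, 0.269), Msra (42 and 15, 0.312), Nfic (434 and 164, 0.330) and Erp44, an endoplasmic reticulum chaperone (54 and 21, 0.340). Spopl (604 and 46) and Zfand6 (327 and 44) were not called with only rings listed on both days. The 4 such rings of Spopl summed to 39 and 40 reads and the 3 of Zfand6 to 35 and 44, with the Zfand6 log2 ratio then 0.13, on the other side of 0.

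Rings of 1 host were seldom all called, where 9.04% of all circRNAs were called. A ring without a call is not thereby shown to differ from a called one. Of 544 hosts with a call and at least 2 circRNAs tested, every tested circRNA was called in 11. In 53 of the 706 hosts with a called circRNA at least 1 ring was higher and another lower. Birc6, an inhibitor of apoptosis, had 1 higher (13 and 34 reads) and 3 lower (28 and 16, 23 and 11, 16 and 7). Tmeff1, a transmembrane protein, had a ring at 195 and 102 and another unlisted at P12 with 41 reads at P13, and Ambra1 had its P13-only ring beside a pair of lower ones (49 and 27, 24 and 13). Under SRPBM scaling none of the lower rings named here for Birc6, Tmeff1 and Ambra1 was called.

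The tables also give non-junction reads at each circRNA's ends, which may come from linear RNA and which the choice of members did not use. The RNA had been depleted of linear RNA, so a junction ratio does not give the share of circles in the tissue. How far the depletion differed between the libraries was not tested. Over 4688 circRNAs with at least 20 junction reads on each day the median junction ratio, 2j/(2j + n) for j junction and n non-junction reads, was 0.506 at P12 and 0.520 at P13. It rose by 0.1 or more for 441 and dropped by that much for 315, with 83.9% in between. The median log2 change in non-junction reads, as deposited plus 1 and not scaled to the library, was 0.12 over all of them. It was 0.27 for the 22 called higher and 0.09 for the 69 called lower. This scale differs from that of the junction ratios of P13 over P12, which are relative to total junction reads, so the sizes are not compared.

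Single circRNAs differed in their non-junction reads. That of Nfic had 363 junction and 182 non-junction reads at P12 and 129 and 198 at P13, so its junction ratio went from 0.800 to 0.566. The Ppp2r2b circRNA had 134 non-junction reads at P12 and 117 at P13, and its junction ratio went from 0.247 to 0.571. The Hltf circRNA differed, with 20 and 53 non-junction reads and a junction ratio of 0.750 and 0.746. Circular RNAs with shared ends share some of these non-junction reads. The junction ratio also holds the junction reads on which the calls were made, so its direction in a called circRNA is partly set by the call.

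Rings of short span had lower ratios than longer ones. The 1339 circRNAs that span under 2000 bases of genome and had reads on both days had a median log2 ratio of -0.11, and 40.2% of them lay above 1. The 8397 of 2000 bases or more had a median of 0.02, with 51.2% above 1. The deletion pair showed -0.10 and 42.1% for 837 short rings, and 0.003 and 50.4% for 4334 longer ones. Under 500 bases the wild-type median was -0.20 and the deletion median -0.19. Insert size and RNA quality are not in the files, and their part in this was not tested.

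**Figure D5:**
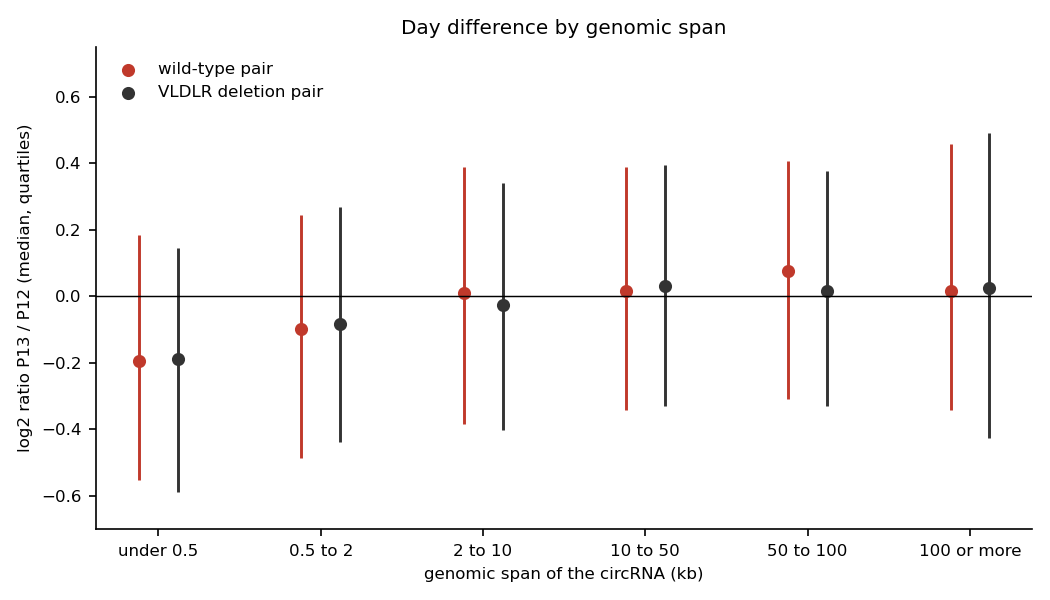
Median (point) and quartiles (line) of the log2 ratio of P13 over P12 by the genomic span of the circRNA in kilobases, for the wild-type pair (red) and the deletion pair (black), circRNAs with reads on both days. In both pairs the medians of the shortest 2 classes lie below 0, and the quartiles of all classes overlap.

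By class, 8.75% of the 8952 exonic circRNAs were called, 12.8% of the 447 intronic ones (23 higher, 34 lower) and 11.4% of the 395 intergenic ones (26 higher, 19 lower). The medians were -0.003, -0.04 and 0.0005 on the log2 scale. The intronic circRNAs had fewer reads, with a median of 36 against 45 for exonic ones.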

How the data were processed

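CircRNA sequencing of total RNA depleted of ribosomal and linear RNA was analysed in 4 libraries, per the labels' protocols. The authors deposited a table per library with the count of junction reads, the count of non-junction reads and the junction ratio (a fraction) of each circRNA, and a table of SRPBM values (a signal scaled to the library). BWA and DESeq2 are listed in the submitters' processing notes without a role. No label or file header names the genome build, and coordinates stand as deposited; 99.9% of the circRNAs with 1 host identifier took a symbol from the RefSeq table, used for names only. Tables were joined on the circRNA identifier and scaled by total junction reads (Python 3.11.15, scipy 1.17.1). The 4-library fit used edgeR 4.0.16 with TMM scaling and was tested on simulated data. The simulated data held no genotype difference and no circRNA dropped by the caller, so they do not check calls that rest on unlisted circRNAs. DESeq2 1.42.0 was the alternative and was not tested on simulated data. The comparison, its members and the 25 gene lists were chosen with earlier results of these data known.

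Named were, by a fixed rule, the 8 called higher and 8 called lower with the largest ratio among circRNAs listed on both days with at least 100 reads, the 6 in each direction with the most reads listed on 1 day, the 10 with the most reads, the 2 with the most reads called in each direction in each list, the 8 hosts in each direction with the largest ratio at 50 reads or more, the 5 hosts with calls both ways with the most reads, and the 6 smallest adjusted p-values in each direction. Alternatives changed scaling, read minimum, fold, lane and the treatment of unlisted circRNAs. No sequence is printed, since no genome was used. Not every circRNA the rule names is reported here.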

Additional observations from a re-analysis of the deposited data

Results flagged for a closer look

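Between the genotypes, 9 circRNAs called in wild type were called the opposite way in the deletion pair. With 1 library a group this difference was not tested. In 8 of them the wild-type ratio was at most 0.5 and the deletion ratio at least 2. These were 5.63% of the 142 circRNAs lower in wild type and tested in the deletion pair. Of the 128 higher in wild type and tested there, 1 was called lower (0.781%). Among circRNAs tested in both pairs and not called in wild type, 3.74% were called higher and 3.91% lower in the deletion pair. For the circRNA of Nipbl, the cohesin loader, reads went from 34 to 18 in wild type and from 3 to 18 in the deletion pair (deletion ratio 5.26). Lrrfip2 went from 24 to 9 and from 4 to 18 (3.95), and Senp5, a SUMO protease, from 25 to 14 and from 4 to 17 (3.73). Ano4, an anoctamin, went from 16 to 5 and from 5 to 18 (3.16), Mllt10 from 42 to 24 and from 5 to 17 (2.98), and Ptpn21, a tyrosine phosphatase, from 35 to 18 and from 6 to 20 (2.92).

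Map4, a microtubule-associated protein, went from 44 to 20 and from 13 to 34 (deletion ratio 2.29). The Setbp1 circRNA was listed at P12 only in wild type (62 reads) and at P13 only in the deletion pair (22 reads). The ninth, of the ubiquitin ligase Rnf216, went the other way, from 6 to 20 in wild type and from 15 to 6 in the deletion pair (0.351).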

How the results depend on the processing

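No paired analysis of replicates was possible because each group was 1 library and the labels give no replicate numbers, so no replicate could be left out either. Of the 420 circRNAs higher and 465 lower in wild type, SRPBM scaling gave 730 and 269, a minimum of 10 reads 881 and 899, a minimum of 50 reads 75 and 105, no filter on low counts 2470 and 2805, and a fold of 4 96 and 88. Lane 2 alone gave 182 and 225 and lane 3 alone 162 and 190, on fewer reads. TMM, median-of-ratios scaling, unlisted circRNAs set to 1 read, circRNAs listed on both days, a fold of 1.5, and, chosen after seeing the data, collapsing neighbouring clusters or leaving out intergenic circRNAs kept both counts within 1.5 times, from 358 to 603 higher and from 374 to 694 lower. Median-of-ratios scaling gave 514 and 393, so that 56.7% of calls were higher. For hosts, 147 higher and 153 lower became 262 and 91 with SRPBM scaling, 38 and 43 at 50 reads, and 63 higher with circRNAs listed on both days (chosen after seeing the data), under which Rpgr (log2 -0.11), Cpt1a (-0.0092) and Zfand6 (0.13) changed sign. Junction ratio changes of 0.1 or more, 441 up and 315 down, became 939 and 706 at 10 reads and 99 and 73 at 50 reads in each library. The 4-library fit gave 0 and 0 with DESeq2 and 7 and 10 with no filter. Of 101 named circRNAs, 18 lost their call with SRPBM scaling, 9 with median-of-ratios scaling, 1 with TMM, 10 with clusters collapsed and 66 at a fold of 4, as did 18 of the 74 with enough reads on lane 2 and 19 of 74 on lane 3, and no called one changed sign, while the uncalled circRNAs of Gigyf2, Hipk3, Mettl9 and Rbm4, with ratios near 1, crossed 0 under some scalings. The cause of these shifts was not tested. With 1 library a day, no difference can be set against the spread between mice.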
